A study of Homo sapiens with 12 samples.

Results

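The imprinted cluster at human chromosome band 11p15 was examined through 6 of its genes, H19, IGF2, CDKN1C, KCNQ1, KCNQ1OT1 and PHLDA2, in human embryonic stem cells (hESCs) and in 1 embryoid body sample. Every array probe annotated to these genes was taken, which gave 10 probes of 47230 on the array and 6 of 20046 named genes. IGF2 and KCNQ1 had 3 probes each, and the other genes had 1 probe each. The genes were listed by name and not by a cut-off on their values, but earlier results of these data were known.

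Total RNA was hybridised to 12 arrays of the Illumina HumanHT-12 type. MEG3 is a maternally expressed non-coding RNA of the DLK1-DIO3 imprinted locus, and its level was the basis on which the cells were sorted. The EB group was 1 embryoid body array labelled MEG3-ON, made as a differentiated reference. The H9 group was 2 arrays of the H9 hESC line, labelled MEG3-OFF. The MEG3-OFF group was 5 sublines of the NTU1 hESC line, numbered 5 to 9, and the MEG3-ON group was 4 NTU1 sublines, numbered 1 to 4. No gene was altered in any group. All groups carried the same culture label, a serum-free primate and human ES cell medium from ReproCELL on mouse embryonic fibroblast feeders. The methods, however, describe embryoid bodies as grown in suspension in Petri dishes. Culture format and differentiation therefore cannot be told apart for the EB array. The sublines came from 1 line, and their passage, how they arose and the age of the embryoid body in culture were not given for the arrays. The p-values therefore measured the spread between sublines of 1 line. In the comparisons with H9 the spread was 1 shared estimate over the NTU1 sublines and the 2 H9 arrays. All arrays were positions of 1 chip, with the arrays of a group side by side, so that chip position and group cannot be told apart.

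Imprinted genes are expressed mainly from the copy inherited from 1 parent. In the first of the domains at 11p15, an imprinting control region upstream of H19 is bound by the insulator protein CTCF on the maternal copy, where H19 is expressed, and is methylated on the paternal copy, where the shared enhancers act on IGF2. In the neighbouring domain, the long non-coding RNA KCNQ1OT1 is transcribed from the unmethylated paternal KvDMR and silences CDKN1C, KCNQ1 and PHLDA2 in cis, so that these are expressed from the maternal copy. H19 is abundant in fetal endoderm and mesoderm and in placenta, and is low in most adult tissues. Loss or gain of methylation in this cluster underlies Beckwith-Wiedemann and Silver-Russell syndromes, and its state is often checked in cultured pluripotent cells.

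Among the 6 genes H19 had the widest range of signals between arrays, and the annotated start of the gene is shown first. Of the 6 genes, 1 had a promoter in the RefSeq-derived table for GRCh38.p14. The stretch runs from 250 bases before to 50 bases after the start of H19, at chr11:2001217-2001516 on the minus strand, with each CG dinucleotide in capitals.
H19 promoter: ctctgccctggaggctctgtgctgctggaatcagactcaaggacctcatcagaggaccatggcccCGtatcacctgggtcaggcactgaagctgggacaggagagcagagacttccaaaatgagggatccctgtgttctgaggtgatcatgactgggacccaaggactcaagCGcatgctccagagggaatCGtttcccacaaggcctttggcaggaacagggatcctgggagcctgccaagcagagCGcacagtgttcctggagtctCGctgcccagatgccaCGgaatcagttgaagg
The window held 6 CG dinucleotides, and 66.3% of the 35116 promoter windows of the same length held at least as many. The sequence TATAAA, searched on both strands, had no match in the window and matched in 11.5% of all windows. TGCCGC, the sequence bound by the imprint-maintaining factor ZFP57, was also searched on both strands. It had no match in the window and matched in 16.7% of all windows.

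H19 is also the host transcript of a microRNA that is processed from it, and the mature forms are shown because they are the best known products of the RNA. Bases 2 to 8, the seed that pairs with target RNAs, are in capitals.
hsa-miR-675-5p: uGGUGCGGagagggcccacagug
hsa-miR-675-3p: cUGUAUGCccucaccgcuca
The 5p form lies at chr11:1996800-1996822 and the 3p form at chr11:1996768-1996787 of GRCh38.p14, both on the minus strand. The 2 forms do not share a seed. No probe used here was annotated to this microRNA, so that only the host transcript was measured.

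Signals are given as log2 normalized signal, after background correction and quantile normalization. A probe was called detected where the deposited detection p was under 0.01. The lowest signal of a detected probe lay between 5.64 and 5.93 on the different arrays. Median raw signals were 83.6 to 108 and 16864 to 18796 probes were detected per array. MEG3 itself followed the labels, at 13.76 on the EB array, 5.10 and 5.15 in H9, 4.97 to 6.30 in MEG3-OFF and 13.15 to 14.12 in MEG3-ON cells. Of 11 pluripotent cell markers with a probe, 11 were detected on every hESC array, and 9 on the EB array, where NANOG was not detected.

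Of the 6 genes, 3 were above background. H19 was detected on 7 of 12 arrays, and CDKN1C and KCNQ1OT1 were detected on 12 of 12. The other 3 genes, IGF2, KCNQ1 and PHLDA2, were not detected by any of their 7 probes on any array. Their raw signals were 48.0 to 125 and their lowest detection p was 0.0117. For these genes the arrays gave only an upper limit, and they passed no filter and entered no test.

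**Figure D1:**
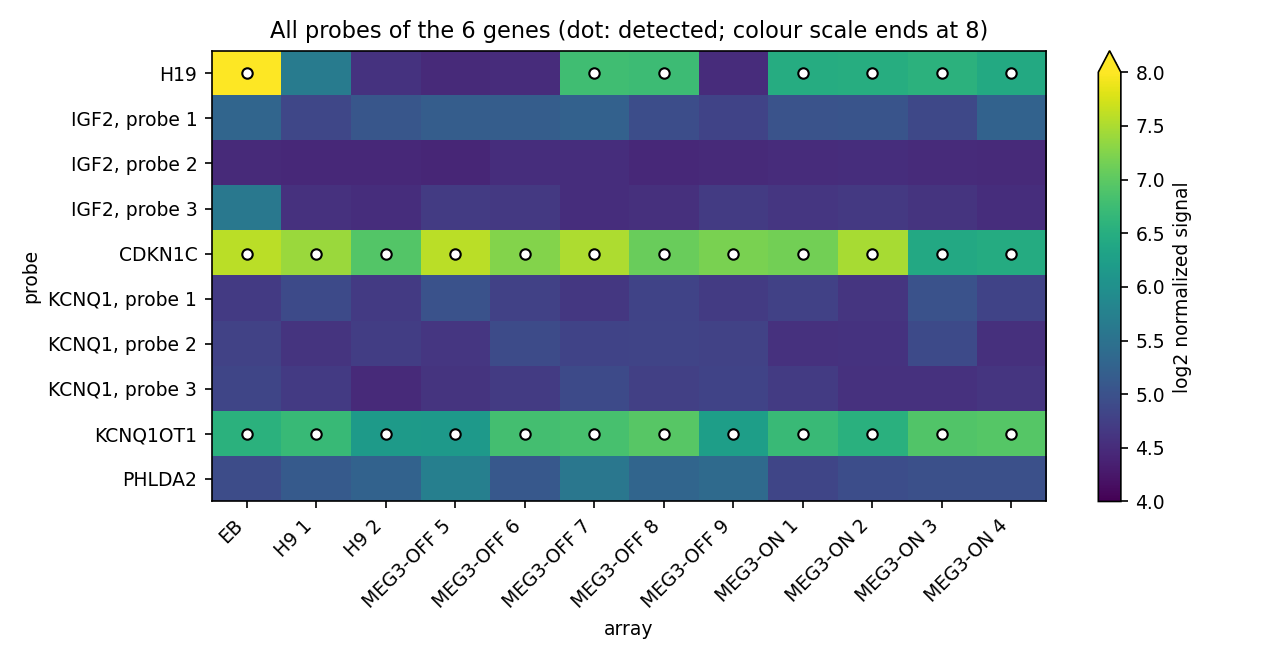
Log2 normalized signal (colour) of the 10 probes of the 6 genes (rows) on the 12 arrays (columns, grouped as EB, H9, MEG3-OFF and MEG3-ON). White dots mark detected probes: all CDKN1C and KCNQ1OT1 squares, 7 of 12 H19 squares and no square of IGF2, KCNQ1 or PHLDA2; the EB square of H19 lies above the end of the colour scale at 12.45.

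H19, the maternally expressed non-coding RNA of the first domain, varied most. Its log2 signal was 12.45 on the EB array. In H9 it was 5.67 and 4.59, both not detected, with a detection p of 0.0247 on the higher array. H19 thus did not pass the detection limit on either H9 array.

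Within the MEG3-OFF group, H19 took 2 separate levels. Sublines 5, 6 and 9 had log2 signals of 4.48, 4.51 and 4.51, not detected, whereas sublines 7 and 8 had 6.78 and 6.75, detected. The 4 MEG3-ON sublines had 6.48, 6.50, 6.57 and 6.44, all detected. The split is also plain in the raw signal. It was 169 and 162 for sublines 7 and 8 and 61.6, 63.9 and 55.4 for sublines 5, 6 and 9, against 157 to 169 in MEG3-ON sublines. Sublines 7 and 8 were therefore above all 4 MEG3-ON sublines after normalization, and the other 3 MEG3-OFF sublines were below them. The SD of H19 was 1.24 among MEG3-OFF sublines (n = 5) and 0.05 among MEG3-ON sublines (n = 4).

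Among the 3 members tested, 0 passed an adjusted p of 0.05 between MEG3-OFF and MEG3-ON cells, where 386 of 10775 genes did (3.58%) by limma with Benjamini-Hochberg adjustment. At an unadjusted p under 0.05, 2 of the 3 passed in limma and 0 in the methods' t-test, beside 22.3% of all genes in limma. The methods' t-test also called 0 after adjustment. H19 averaged 5.41 ± 1.24 in MEG3-OFF (SD, n = 5) and 6.50 ± 0.05 in MEG3-ON cells (SD, n = 4). The log2 difference was -1.09 ± 0.47 (SE; 95% interval -2.12 to -0.06; unadjusted p = 0.0391, adjusted p = 0.202 by limma), with groups that overlapped. Over 20 alternative settings the difference of H19 lay between -1.43 and -0.60, and its adjusted p lay between 0.0795 and 0.377.

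**Figure D2:**
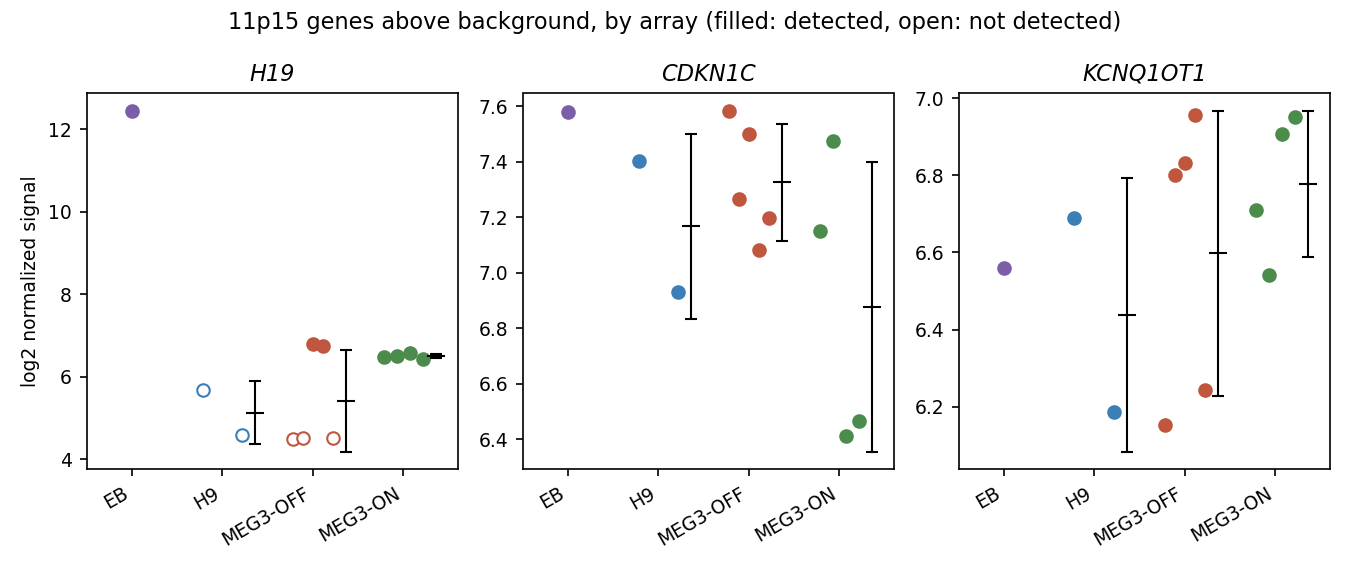
Log2 normalized signal (vertical axis, a separate scale for each gene) of H19, CDKN1C and KCNQ1OT1 on each array; filled points are detected, open points are not, and black bars are the group mean ± SD. H19 of the MEG3-OFF sublines lies either near 4.5 or near 6.8, whereas the points of CDKN1C and KCNQ1OT1 overlap between MEG3-OFF and MEG3-ON cells.

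Against H9, the second line with a MEG3-OFF label, 0 of 3 members passed the threshold relative to MEG3-OFF NTU1 cells, where 31.4% of 11583 genes did, and 0 had an unadjusted p under 0.05 in limma (44.0% of all genes). H19 averaged 5.13 ± 0.76 in H9 (SD, n = 2) and 5.41 ± 1.24 in MEG3-OFF cells (SD, n = 5), with a log2 difference of -0.28 ± 0.60 (95% interval -1.56 to 1.00; adjusted p = 0.745 by limma). Both means hold arrays below background. Between H9 and MEG3-ON cells, 0 of 3 members passed, where 29.1% of 11583 genes did, and 1, H19, had an unadjusted p under 0.05 in limma (41.8% of all genes). H19 was not detected in H9 and was detected on all 4 MEG3-ON arrays. It was at least 1.64-fold lower in H9, which sets the mean of the MEG3-ON arrays against the lowest detected signal of each H9 array. The fitted log2 difference was -1.37 ± 0.62 (95% interval -2.69 to -0.04; adjusted p = 0.109 by limma). The spread of the MEG3-OFF sublines enters the shared estimate of error in this fit. With the fit limited to the H9 and MEG3-ON arrays the same difference had an adjusted p of 0.00514 by limma, and over 17 alternatives the adjusted p ranged from 0.000948 to 0.523.

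**Figure D3:**
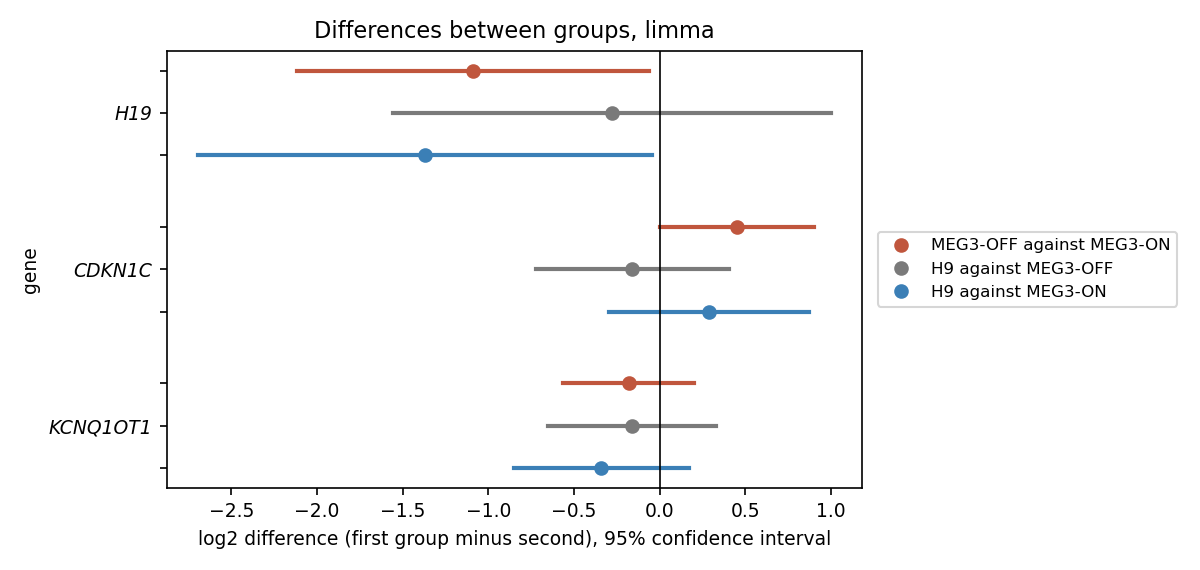
Log2 difference (horizontal axis, first group minus second) of H19, CDKN1C and KCNQ1OT1 in 3 comparisons, with 95% confidence intervals from limma. Of the 3 H19 intervals, 2 exclude 0 before adjustment over all genes, at -2.12 to -0.06 and -2.69 to -0.04, and no member passed after it.

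On the EB array H19 had the largest positive difference to MEG3-ON cells of all genes compared. Its signal was 61.9-fold above the average of MEG3-ON cells, a log2 difference of 5.95, and it ranked 1 of 11763 genes by this difference. The margin was narrow, as the next gene had a difference of 5.89. H19 also ranked 1 with the authors' normalized values (36.4-fold), with scaling to the median (56.7-fold) and with a larger offset (45.2-fold). Genes below background in MEG3-ON cells have only a lower limit in such a ranking, and 9608 of the genes were detected on the EB array and on all 4 MEG3-ON arrays. Relative to H9, the EB signal of H19 was at least 101-fold higher. With 1 EB array these are differences between samples without a replicate check. In all, 16.8% of genes differed by more than 2-fold in either direction between the EB array and the MEG3-ON mean.

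IGF2, the growth factor gene that shares enhancers with H19 and is expressed from the paternal copy, did not accompany it above background. Its 3 probes had log2 signals of 5.30, 4.47 and 5.60 on the EB array. In H9 the same probes lay between 4.45 and 5.07, in MEG3-OFF cells between 4.43 and 5.25 and in MEG3-ON cells between 4.48 and 5.26. The EB signal of 5.60 was the highest of all IGF2 values and had a detection p of 0.0117, just outside the limit of 0.01. The separate probe for the INS-IGF2 readthrough transcript was at 5.31 on the EB array, also not detected, and between 4.44 and 4.57 on the hESC arrays. A signal of H19 far above background thus stood beside IGF2 signals that no probe detected.

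Markers of differentiated cells were also higher on the EB array, and their part in the H19 signal was not tested. Of 14 endoderm and yolk sac markers, 9 were detected, with a summed normalized signal of 3229 on the EB array against 1519 to 1705 in MEG3-ON cells. APOA1 and TTR were among those detected on the EB array, whereas SOX17, GATA4, GATA6, SERPINA1 and RBP4 were not. The 18 mesenchyme and fibroblast markers summed to 33842 on the EB array against 11896 to 18757 in MEG3-ON cells, and DCN was not detected. The 18 trophoblast and amnion markers summed to 7962 on the EB array against 2548 to 4084, and 9 of them, among them GATA3, GCM1 and KRT7, were not detected. The 13 neural progenitor markers summed to 41088 on the EB array against 8059 to 10566, with SOX1 not detected. Of 12 compared, 8 were more than 2-fold higher. HESX1 was the 1 that was more than 2-fold lower, at 8.60 against a MEG3-ON mean of 10.38. The 11 pluripotent cell markers summed to 26825 on the EB array against 65210 to 68874, and 8 of them were more than 2-fold lower. SOX2 and LIN28A were lower by less than 2-fold, and LIN28B was at 11.76 against a MEG3-ON mean of 11.44. In such bulk samples more cells of a type and more RNA per cell cannot be told apart.

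CDKN1C, which encodes the cyclin-dependent kinase inhibitor p57 and restrains growth, was detected on every array. Its log2 signal was 7.58 on the EB array and 7.40 and 6.93 in H9. The MEG3-OFF sublines 5 to 9 had 7.58, 7.26, 7.50, 7.08 and 7.20, against 7.15, 7.48, 6.41 and 6.47 in MEG3-ON sublines 1 to 4. MEG3-ON sublines 3 and 4 were thus the lowest of all arrays, while sublines 1 and 2 lay within the MEG3-OFF range. The mean was 7.33 ± 0.21 in MEG3-OFF (SD, n = 5) and 6.88 ± 0.52 in MEG3-ON cells (SD, n = 4). The log2 difference of 0.45 ± 0.21 (95% interval 0.00 to 0.90) had an unadjusted p of 0.04999 and did not pass after adjustment (adjusted p = 0.224 by limma). H9 differed from MEG3-OFF cells by -0.16 ± 0.26 (95% interval -0.72 to 0.40; adjusted p = 0.668) and from MEG3-ON cells by 0.29 ± 0.27 (95% interval -0.29 to 0.87; adjusted p = 0.439) in limma. The EB signal was 1.63-fold higher than the MEG3-ON mean, at a log2 difference of 0.70, and lay at the level of MEG3-OFF subline 5.

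KCNQ1OT1, the paternally expressed RNA that silences its neighbours in cis, was detected everywhere within a narrow range. Its log2 signal was 6.56 on the EB array and 6.69 and 6.19 in H9. The MEG3-OFF sublines 5 to 9 had 6.15, 6.80, 6.83, 6.96 and 6.24, against 6.71, 6.54, 6.91 and 6.95 in MEG3-ON sublines 1 to 4. Sublines 5 and 9 of the MEG3-OFF group were the low ones, and the groups overlapped. KCNQ1OT1 averaged 6.60 ± 0.37 in MEG3-OFF (SD, n = 5) and 6.78 ± 0.19 in MEG3-ON cells (SD, n = 4), with a log2 difference of -0.18 ± 0.18 (95% interval -0.56 to 0.20; adjusted p = 0.571 by limma). H9 differed from MEG3-OFF cells by -0.16 ± 0.23 (95% interval -0.65 to 0.33; adjusted p = 0.618) and from MEG3-ON cells by -0.34 ± 0.24 (95% interval -0.85 to 0.17; adjusted p = 0.294) in limma. The EB array differed from the MEG3-ON mean by -0.22, about the spread between MEG3-ON sublines (SD 0.19, n = 4).

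KCNQ1 encodes a voltage-gated potassium channel subunit, and its 3 probes lay between 4.48 and 5.01 on all 12 arrays. PHLDA2, a small protein that restrains placental growth in mice, was at 4.92 on the EB array and 5.13 and 5.26 in H9. It was at 5.73, 5.10, 5.58, 5.30 and 5.38 in MEG3-OFF sublines, against 4.83, 4.95, 4.97 and 4.98 in MEG3-ON sublines. None of these values reached detection (lowest detection p 0.0130), so that they are not read as a difference between groups and no fold is given.

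Relations between members were computed over the 9 NTU1 arrays, for 3 pairs. The signals of KCNQ1OT1 and CDKN1C ran in opposite directions without passing the threshold. Pearson's r was -0.585 (exact permutation p = 0.0812, two-sided; adjusted p = 0.122), and Spearman's rho was -0.683 (exact permutation p = 0.0503; adjusted p = 0.0883). Without the 2 arrays farthest from the median of CDKN1C, r was -0.434. With the group means taken out, r was -0.52. The arrays do not separate the parental copies, and silencing in cis was not tested. Both pairs with H19 were counted in the adjustment, and neither passed after it. The H19 signals fell into separate clusters, so that no pooled correlation of H19 with another member is given.

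The genes most like H19 in pattern were described over the 11 hESC arrays. Of 10555 other genes, 8 had a Pearson's r above 0.9 with H19, over arrays that share lines and a chip. As the H19 signals fell into separate clusters, these r values can reflect that split alone and are only a description. The 3 highest were IRAK1 (0.966), a kinase of interleukin-1 and Toll-like receptor signalling, SNRNP25 (0.942), a protein of the minor spliceosome, and SORBS2 (0.937), an adaptor of the actin cytoskeleton. IRAK1 was at 9.56, 9.30, 10.08, 10.11 and 9.28 in MEG3-OFF sublines 5 to 9, against 10.03 to 10.12 in MEG3-ON sublines. SORBS2 was at 5.69, 5.45, 6.80, 7.34 and 5.41 in MEG3-OFF sublines, where it was detected in 7 and 8, against 6.59 to 7.04 in MEG3-ON sublines. Both genes were high in sublines 7 and 8, the sublines in which H19 was detected. They were picked for a high r with H19 over these same arrays, so that this likeness follows from the choice. For CDKN1C the 3 highest were GADD45B (0.914), a stress response gene, TPST1 (0.911), a protein tyrosine sulfotransferase, and ZC3H12A (0.880), an RNase of inflammatory transcripts. For KCNQ1OT1 they were MAP4K1 (0.919), a kinase of blood cells, SORCS1 (0.912), a sorting receptor, and FEZF1-AS1 (0.889), a long non-coding RNA. The median r over all genes was 0.01 for H19, -0.02 for CDKN1C and 0.05 for KCNQ1OT1.

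NNAT and DLK1, imprinted genes of other chromosomes that were chosen after their values were seen, were set beside H19. NNAT, a paternally expressed gene of chromosome 20, was at 5.36, 5.23, 11.80, 11.25 and 5.54 in MEG3-OFF sublines 5 to 9, against 11.92 to 12.57 in MEG3-ON sublines. It was detected in sublines 7 and 8 and in no other MEG3-OFF subline, the same division as for H19. In H9, where H19 was not detected, NNAT was detected on both arrays, at 6.33 and 10.10. DLK1, the paternally expressed gene of the MEG3 locus on chromosome 14, was at 8.16, 9.15, 10.13, 10.94 and 8.18 in MEG3-OFF sublines, against 10.68 to 11.19 in MEG3-ON sublines. DLK1 was highest of the MEG3-OFF group in sublines 7 and 8, but was detected in all 5. MEG3 was 5.08 and not detected in subline 7, and 6.30 and detected in subline 8, so that H19 was present in a subline without detected MEG3. On the EB array NNAT was at 14.02 and DLK1 at 14.60. The summed neural progenitor markers were 5481 and 5706 in sublines 7 and 8 and 3624 to 5311 in the other MEG3-OFF sublines, against 8059 to 10566 in MEG3-ON sublines. Their part in these patterns was not tested.

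**Figure D4:**
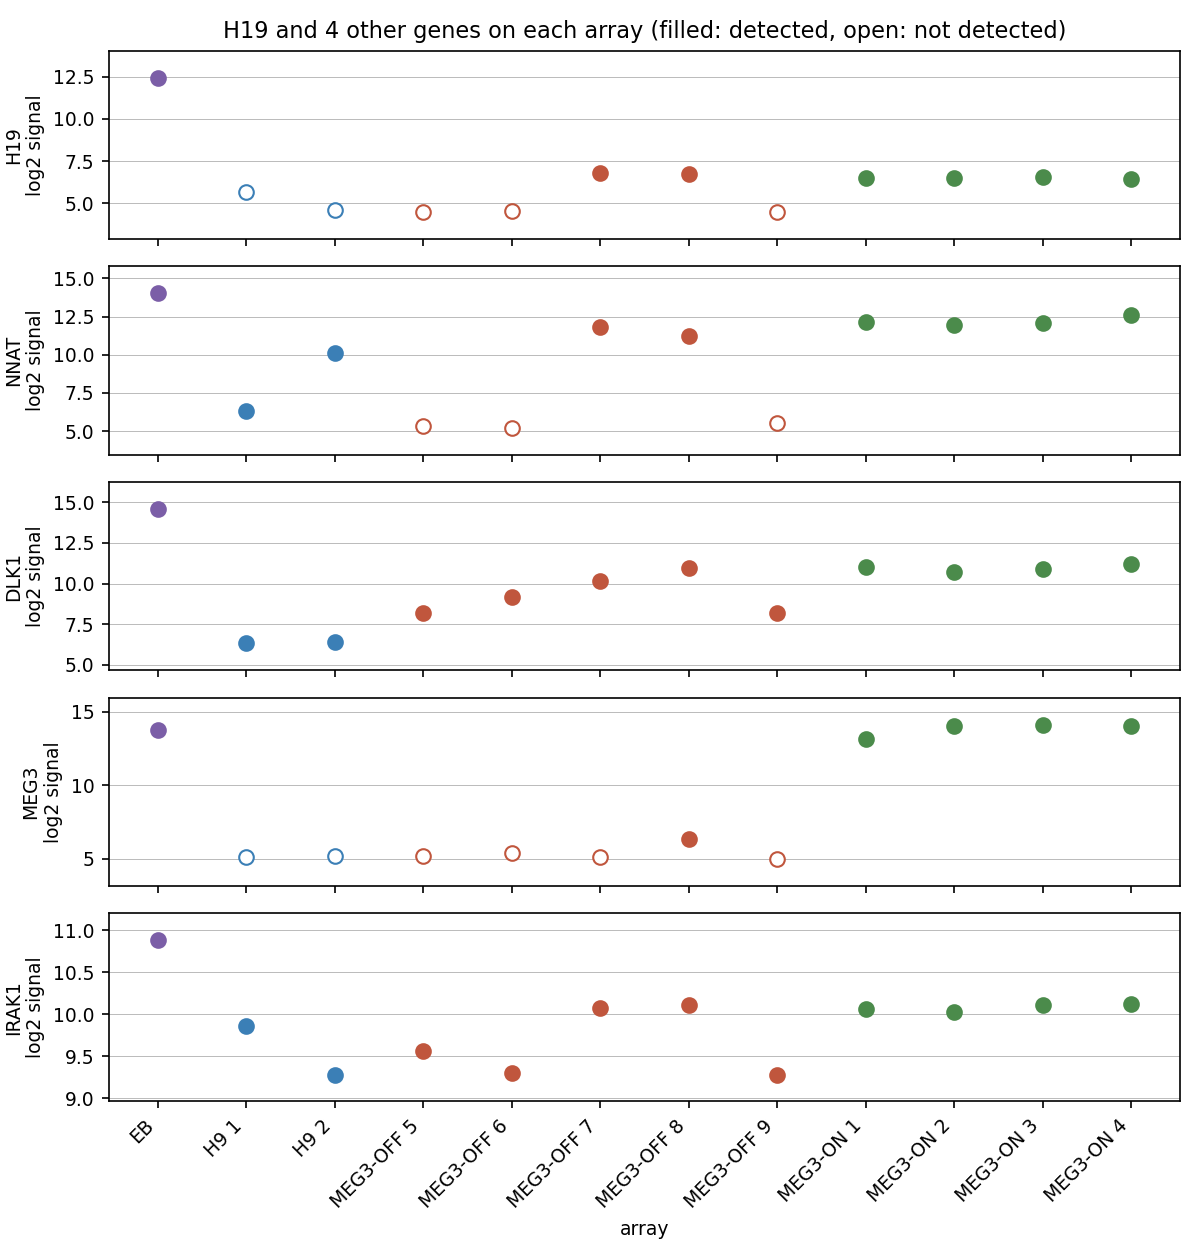
Log2 normalized signal (vertical axes, a separate scale for each gene) of H19, NNAT, DLK1, MEG3 and IRAK1 on the 12 arrays (horizontal axis, EB, H9, MEG3-OFF and MEG3-ON); filled points are detected, open points are not. H19, NNAT and IRAK1 are high in MEG3-OFF sublines 7 and 8 and low in 5, 6 and 9, whereas MEG3 is below 6.4 in all 5. IRAK1 was picked for its likeness to H19 on these arrays, and NNAT and DLK1 after their values were seen.

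Genes on either side of the members on 11p15.5 were read next. Of 35 listed names of 11p15.5 neighbours, 27 had a probe and 14 were tested. Between MEG3-OFF and MEG3-ON cells 0 of 14 passed in either direction (limma, beside 3.58% of all genes), with a median log2 difference of 0.06 against 0.02 over all genes. Before adjustment 4 had a p under 0.05 in limma, beside 22.3% of all genes, and 4 in the methods' t-test, where 1928 of all genes did. The smallest p-values belonged to MRPL23, a mitochondrial ribosomal protein gene next to H19 (0.40 ± 0.14, adjusted p = 0.128), and RRM1, a subunit of ribonucleotide reductase (-0.37 ± 0.14, adjusted p = 0.147). In H9, 2 of 15 neighbours were higher and 5 lower than in MEG3-OFF cells, and 2 were higher and 3 lower than in MEG3-ON cells. Over all genes 31.4% and 29.1% passed in these comparisons, so that the neighbours' counts are read against a broad difference between the lines. RRM1 was higher in H9 by 0.99 ± 0.18 against MEG3-OFF (adjusted p = 0.00268) and by 0.61 ± 0.19 against MEG3-ON cells (adjusted p = 0.0266). CD81, a tetraspanin, was lower in H9, with log2 differences of -0.60 ± 0.14 against MEG3-OFF (adjusted p = 0.00639) and -0.42 ± 0.14 against MEG3-ON cells (adjusted p = 0.0384). ZNF195 was higher in both comparisons (0.82 and 0.80) and CTSD, a lysosomal protease, was lower in both (-0.87 and -0.58). Against MEG3-ON cells the call was lost in 8 of 17 alternatives for CD81, 5 for CTSD, 4 for RRM1 and 1 for ZNF195. Against MEG3-OFF cells it was lost in 1 of 17 for each of these genes. Without the second H9 array, which leaves 1 H9 array in the fit, the differences kept their signs. Against MEG3-OFF cells they were 0.81 for RRM1, -0.62 for CTSD, 0.73 for ZNF195 and -0.48 for CD81. Against MEG3-ON cells they were 0.44, -0.33, 0.71 and -0.30 in the same order.

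On the EB array, 1 of 15 neighbours exceeded 2-fold, beside 9.09% of all genes that were higher by that much. This was TH, the rate-limiting enzyme of catecholamine synthesis, which lies on the other side of INS and IGF2 and was chosen after its values were seen. It was at 6.74 on the EB array, the single array on which it was detected, against 4.57 to 4.72 in MEG3-ON cells, at least 1.87-fold higher. INS, INS-IGF2 and MIR483, which lie between TH and H19, were detected on no array.

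The genes of insulin-like growth factor (IGF) signalling give the context in which IGF2 would act. Between MEG3-OFF and MEG3-ON cells 1 of 19 tested passed, IGFBP5, a secreted IGF-binding protein. It was at 8.73, 7.56, 6.95, 7.83 and 6.83 in MEG3-OFF sublines 5 to 9, against 8.61, 9.16, 8.66 and 9.52 in MEG3-ON sublines, and only subline 5 overlapped the MEG3-ON values. It was 2.65-fold lower in MEG3-OFF cells, a log2 difference of -1.41 ± 0.33 (adjusted p = 0.0367 by limma). The call was lost in 9 of 20 alternatives, among them the omission of MEG3-ON 1, 2 or 4 or of MEG3-OFF 6, 7 or 9, where the adjusted p was 0.0684 to 0.131.

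In H9, 0 of 20 IGF signalling genes were higher and 8 lower than in MEG3-OFF cells, and 0 were higher and 9 lower than in MEG3-ON cells. Of all 11583 genes, 1529 were higher and 2113 lower in the first comparison (31.4% in all), and 1392 higher and 1983 lower in the second (29.1% in all). IGFBP5 was at 6.35 and 5.91 in H9 and was lower there, with differences of -1.45 ± 0.41 against MEG3-OFF (adjusted p = 0.0171) and -2.85 ± 0.42 against MEG3-ON cells (adjusted p = 0.000616) in limma. IGF2R, the receptor that binds IGF2 and carries it to lysosomes, was at 10.52 and 10.50 in H9, against 11.28 to 11.51 in MEG3-OFF and 11.22 to 11.76 in MEG3-ON cells. It was lower in H9, with differences of -0.88 ± 0.16 against MEG3-OFF cells (adjusted p = 0.00246) and -0.97 ± 0.16 against MEG3-ON cells (adjusted p = 0.00129). IGFBP2 was lower in H9 than in MEG3-ON cells (-1.29 ± 0.24, adjusted p = 0.00199). PAPPA, a protease that cleaves IGF-binding proteins, was not detected in H9 and was at least 1.28-fold lower than in MEG3-OFF cells (adjusted p = 0.00705) and at least 1.55-fold lower than in MEG3-ON cells (adjusted p = 0.00223). IGF1R, the receptor for both IGFs, had a lower fitted signal in H9 in both comparisons, but was detected on 0 of 2 H9, 2 of 5 MEG3-OFF and 1 of 4 MEG3-ON arrays, so that no fold is given. SHC1, an adaptor of receptor signalling, was lower in H9 than in MEG3-OFF cells (-0.77 ± 0.14, adjusted p = 0.00276). Without the second H9 array, the calls of IGFBP5 (-1.23, adjusted p = 0.182), PAPPA (-0.95, adjusted p = 0.0977) and SHC1 (-0.71, adjusted p = 0.0529) against MEG3-OFF cells and of IGFBP2 against MEG3-ON cells (-0.91, adjusted p = 0.0503) were lost by limma, whereas IGF2R passed in both comparisons under all 17 alternatives.

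Of 21 IGF signalling genes compared, 9 were more than 2-fold higher on the EB array than in MEG3-ON cells and 0 were more than 2-fold lower, beside 9.09% of all genes that were higher. IGFBP5 was at 13.04 on the EB array, a log2 difference of 4.05 to the MEG3-ON mean. IGFBP2 was at 12.71 and PAPPA at 7.74, with differences of 1.36 and 1.32. IGF2R was at 11.42, a difference of -0.06, and IGF1 was detected on no array. Of the 7 IGFBP genes, 5 were more than 2-fold higher on the EB array, while IGFBP6 differed by 0.23 and IGFBP4 by -0.91.

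**Figure D5:**
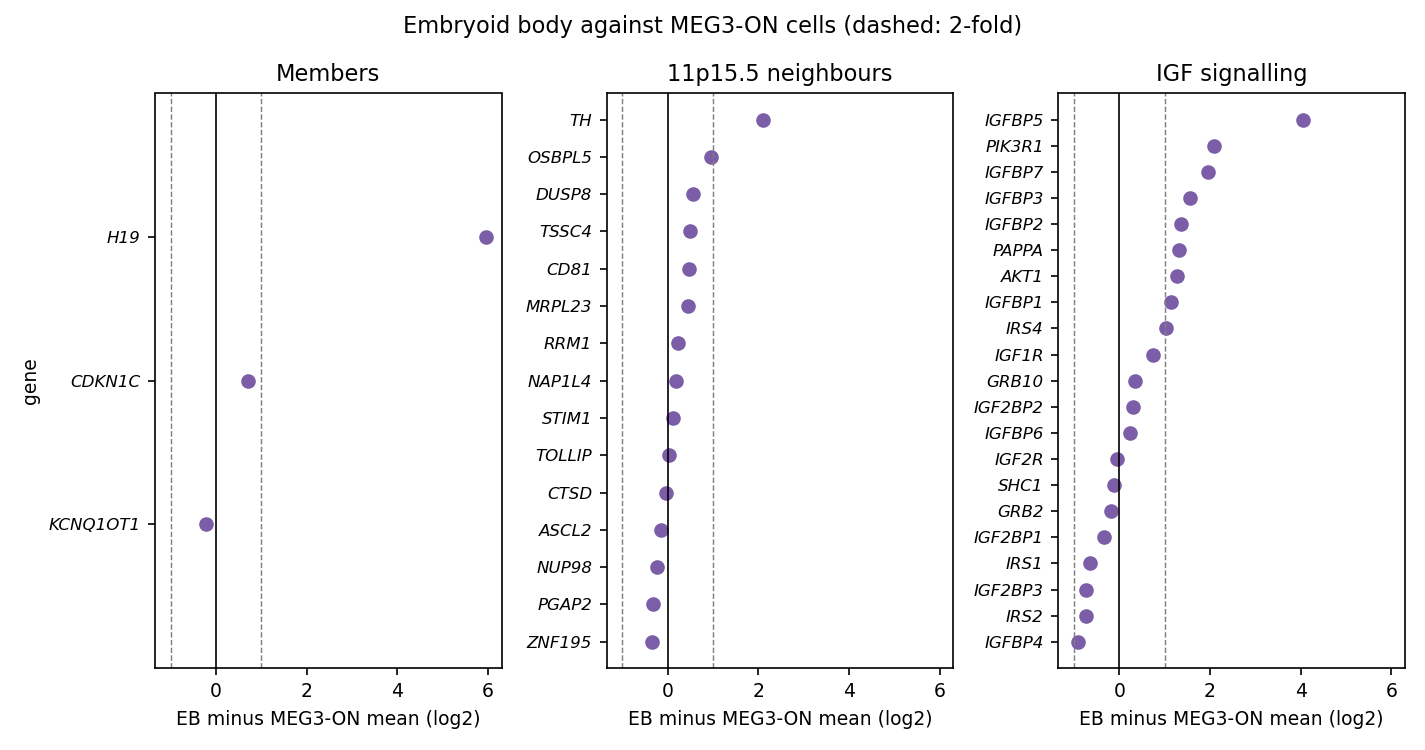
Log2 difference (horizontal axis) between the EB array and the average MEG3-ON signal (4 arrays) for the 3 members above background, the 11p15.5 neighbours and the IGF signalling genes that passed the filter; dashed lines mark 2-fold in either direction. H19 lies at 5.95, TH is the single neighbour past 2-fold, and 9 of 21 IGF signalling genes lie past 2-fold on the higher side.

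Factors that set or keep imprints were read from a list of 32 genes. Between MEG3-OFF and MEG3-ON cells 3 of 23 tested were higher and 0 lower, beside 3.58% of all genes. NLRP2, NLRP7 and KHDC3L encode proteins of the oocyte subcortical complex, and variants of NLRP7 and KHDC3L in mothers are known to cause loss of maternal imprints in hydatidiform moles. NLRP2 was at 11.47, 11.20, 11.04, 11.11 and 11.10 in MEG3-OFF sublines, against 9.92, 10.16, 9.79 and 10.38 in MEG3-ON sublines. The difference was 1.12 ± 0.14 (adjusted p = 0.000729 by limma), 2.18-fold, and the groups did not overlap. NLRP7 was at 7.48, 7.63, 7.71, 7.65 and 7.67 in MEG3-OFF sublines, against 6.68, 7.27, 6.47 and 6.91 in MEG3-ON sublines. The difference was 0.79 ± 0.15 (adjusted p = 0.0114 by limma), 1.73-fold, without overlap. KHDC3L was at 6.28 to 7.03 in MEG3-OFF sublines, detected in all 5, against 5.32 to 6.10 in MEG3-ON sublines, detected in 1 of 4. The fitted difference was 1.03 ± 0.19 (adjusted p = 0.0103 by limma), against a MEG3-ON mean of 5.55 at background, and it was 0.54 with the authors' normalized values and 0.68 with an offset of 50. In sublines 7 and 8, where H19 was detected, KHDC3L was at 6.43 and 6.45, between the other MEG3-OFF values. With the methods' t-test all 3 calls were lost (adjusted p = 0.0874 for NLRP2, 0.195 for NLRP7 and 0.135 for KHDC3L), and that of KHDC3L was also lost without MEG3-ON 4 (adjusted p = 0.0524 by limma). CTCF, the insulator protein at the H19 control region, differed by 0.03 (adjusted p = 0.940), DNMT1, the maintenance methyltransferase, by 0.09 (adjusted p = 0.682) and TRIM28, a cofactor of ZFP57, by 0.25 (adjusted p = 0.200), in limma.

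In H9, 4 of 24 of these factors were higher and 8 lower than in MEG3-OFF cells, and 6 were higher and 9 lower than in MEG3-ON cells, beside 31.4% and 29.1% of all genes called. NLRP7 was higher in H9, at 8.73 and 8.91, by 1.19 ± 0.18 against MEG3-OFF (adjusted p = 0.00103) and by 1.98 ± 0.19 against MEG3-ON cells (adjusted p = 2.16e-05) in limma. DPPA3, which protects imprints from demethylation in mouse zygotes, was higher by 1.78 ± 0.23 against MEG3-OFF (adjusted p = 0.000388) and by 1.36 ± 0.24 against MEG3-ON cells (adjusted p = 0.0015). RAD21, a subunit of the cohesin complex, was lower than in MEG3-OFF cells (-1.42 ± 0.19), but with the mean of its probes in place of 1 probe the difference was -0.29 (adjusted p = 0.171). On the EB array 1 of 23 factors was more than 2-fold higher and 7 were more than 2-fold lower than in MEG3-ON cells, beside 9.09% of all genes higher and 7.75% lower by that much. NLRP7 was not detected there, at least 2.29-fold lower, and DPPA3 was not detected, at least 3.29-fold lower. DNMT3B and ZFP42, which also stand in the list of pluripotent cell markers, were among the 7.

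Relatives of the members were tested where they had signal. Of 7 tested, 0 passed between MEG3-OFF and MEG3-ON cells, while 2 had an unadjusted p under 0.05 in limma (22.3% of all genes) and 2 in the methods' t-test. PHLDA3, a relative of PHLDA2, differed by 0.71 ± 0.19 (adjusted p = 0.058), and CDKN1A, which encodes the inhibitor p21 and is a relative of CDKN1C, by 0.75 ± 0.25 (adjusted p = 0.109) in limma. In H9, 0 of 7 passed against MEG3-OFF cells, beside 31.4% of all genes, and 0 of 7 against MEG3-ON cells, beside 29.1%. At an unadjusted p under 0.05 in limma, 3 of 7 and 0 of 7 did, beside 44.0% and 41.8% of all genes. On the EB array 1 of 7 differed by more than 2-fold, beside 16.8% of all genes in either direction. This was PHLDA1, another relative of PHLDA2, named after its values were seen, with a log2 difference of -1.42.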

How the data were processed

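Total RNA of 12 samples was measured on Illumina HumanHT-12 arrays. The authors deposited raw probe intensity values with a detection p-value for each array, and a table of intensity values normalized by the authors with Partek. The methods name a log transformation and quantile normalization, and the deposited table is on a linear scale. Detection p-values were deposited as the scanner software gave them.

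The raw values were background-corrected and quantile-normalized with neqc (limma 3.58.1, R 4.3.3; offset 16). Log2 values after an offset understate differences of dim probes. Probes were named through the platform annotation and Entrez identifiers: of 47230 probes, 30113 had 1 symbol, 8 had several and 17109 had none. A gene was represented by its probe with the highest mean over the 12 arrays, as in the authors' methods. Genes detected (detection p under 0.01) on at least 4 of 9 NTU1 arrays, or 2 of 11 hESC arrays for the H9 comparisons, were tested with lmFit and eBayes, Benjamini-Hochberg adjusted over all genes tested. The EB array was compared without a test, for genes detected on it or on at least 2 MEG3-ON arrays. The fit was tested on simulated data.

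The named genes were all members, per list and comparison up to 5 genes past the threshold by smallest p (otherwise the 2 smallest, as values), the 3 genes most like each measured member, and MEG3. The members and lists were chosen with earlier results of these data known. Alternatives were other normalizations, offsets, filters and probe rules, the methods' t-test, fewer arrays, a replicate block and the omission of each array. Figures were drawn with matplotlib.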

Additional observations from a re-analysis of the deposited data

How the results depend on the processing

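Between MEG3-OFF and MEG3-ON cells 0 members passed in all 20 alternatives, and no member changed direction. The count of all genes was 32 with the methods' t-test after Benjamini-Hochberg adjustment (1928 genes at an unadjusted p under 0.05) and lay between 108 and 997 with single arrays left out, lowest without MEG3-ON 4 and highest without MEG3-OFF 5. Between H9 and MEG3-OFF cells 0 members passed in all 17 alternatives, and 5550 probes passed when every detected probe was tested. With single arrays left out the count of genes lay between 500 and 3917, H19 between -0.82 and 0.26, CDKN1C between -0.40 and 0.08 and KCNQ1OT1 between -0.41 and 0.09. H19 turned positive without MEG3-OFF 7 (0.06), MEG3-OFF 8 (0.06) or H9 2 (0.26), and without H9 2 so did CDKN1C (0.077) and KCNQ1OT1 (0.0918). Between H9 and MEG3-ON cells 1 member, H19, passed with only those arrays, and 1, also H19, with a replicate block. With single arrays left out the count of genes lay between 1063 and 3192, lowest without H9 2. The replicate block gave 1632 genes and a CDKN1C difference of -0.15. H9 and MEG3-ON share numbers 1 and 2, but these are different lines, and deviations of same-numbered arrays correlated at -0.16 over 11583 genes. The EB difference of H19 was 5.18 with the authors' values, 5.83 with median scaling and 5.50 with an offset of 50. No array lay past Dixon's limit in the 6 groups of values tested. The limit cannot be applied to a group of 1 or 2 arrays, such as EB and H9. It can also miss 2 values that lie together, such as H19 in MEG3-OFF 7 and MEG3-OFF 8, so that it does not clear every array. Precision was limited by the number of arrays and, for IGF2, KCNQ1 and PHLDA2, by signal at background.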
